A study of Mus musculus with 8 samples.

Results

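Matrix metalloproteinases (MMPs) and tissue inhibitors of metalloproteinases (TIMPs) were followed across 8 RNA-sequencing libraries of 4T1, a carcinoma cell line from a mouse mammary gland that serves to study breast cancer spread. The set held 10 of the 24454 genes listed: 7 proteases (Mmp3, Mmp9, Mmp10, Mmp13, Mmp14, Mmp15 and Mmp19) and 3 inhibitors (Timp1, Timp2 and Timp3), taken by gene symbol. Every library came from cells that had been infected with a lentiviral short hairpin vector and selected with puromycin, the controls included. A non-targeting hairpin was used for 3 libraries (shCTRL), a hairpin to mouse MEK5 for 2 (shMEK5, titled shMEK5-2) and a hairpin to mouse ERK5 for 3 (shERK5, titled shERK5-1). Each target was represented by 1 hairpin in 1 cell line, and the cells were grown in culture, without stroma or host tissue. The series asks how the kinase MEK5 and its substrate kinase ERK5 bear on the epithelial-mesenchymal transition and metastasis of breast cancer cells.

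MMPs are zinc-dependent endopeptidases that cut collagens, laminins, proteoglycans and other extracellular proteins. Most are made as inactive proenzymes and gain activity when a propeptide is removed, often by plasmin or by another MMP, and TIMPs block the active site in tight complexes. Transcript levels therefore do not describe proteolytic activity, and the amounts of proenzyme and inhibitor protein were not measured. In mammary tumours these enzymes are known for remodelling the matrix around invading cells, and both tumour cells and stromal cells can make them.

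Depth was 41397315 to 53714288 gene-assigned reads per library, so that 1 read was worth 0.0186 to 0.0242 CPM (counts per 1000000 reads assigned to genes). Each hairpin lowered its own target: Map2k5, which encodes MEK5, had a level of 36.3 ± 0.997 CPM (SD, n = 3) with shCTRL and 14.2 ± 0.216 CPM (SD, n = 2) in shMEK5. Mapk7, which encodes ERK5, was at 26.8 ± 1.61 CPM (SD, n = 3) in shCTRL and 6.53 ± 0.173 CPM (SD, n = 3) in shERK5. Mapk7 was also lower in shMEK5, at 19.5 ± 1.19 CPM (SD, n = 2; limma adjusted p = 0.000923). Whether replicates are separate cultures is not said in the labels, so that a p-value here reflects only how far these libraries spread, and that spread may be technical. Of 8 mammary epithelial markers, 7 reached 1 CPM in every library. In bulk RNA, fewer cells making a transcript and less transcript per cell cannot be told apart.

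The transcripts of 3 secreted proteases, Mmp3, Mmp10 and Mmp13, fell in both knockdowns, to between 15.2% and 48.9% of the shCTRL mean. Mmp19 fell less steeply, to 61.4% in shMEK5 and 70.5% in shERK5. Mmp9 and Mmp14 rose, to between 118% and 134% of the shCTRL mean. Of the inhibitors, Timp1 rose in shMEK5, to 123%, Timp2 fell in shERK5, to 85.0%, and Timp3 was at trace level. The test was limma on log2(CPM + 1), with Benjamini-Hochberg adjustment over the 11623 genes that reached 1 CPM in at least 2 libraries, and a call meant an adjusted p below 0.05. It covered 8 of the 10 genes and left out Mmp15 and Timp3. In shMEK5 against shCTRL, 7 of the 8 were called, where 48.7% of all tested genes were called. Of these, 3 were higher and 4 lower, beside 23.1% and 25.6% of all tested genes, and in 8 of 8 the libraries of the groups did not overlap, beside 68.7%. In shERK5 against shCTRL, 7 of the 8 were called, where 63.3% of all tested genes were called. Of these, 2 were higher and 5 lower, beside 32.0% and 31.3%, and in 7 of 8 the libraries did not overlap, beside 67.9%. The median log2 fold change of the 8 genes was -0.34 in each comparison, beside -0.02 and 0.00 over all tested genes. Both comparisons use the same 3 shCTRL libraries, and Mmp13 entered the test only through them, so it had to differ.

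**Figure D1:**
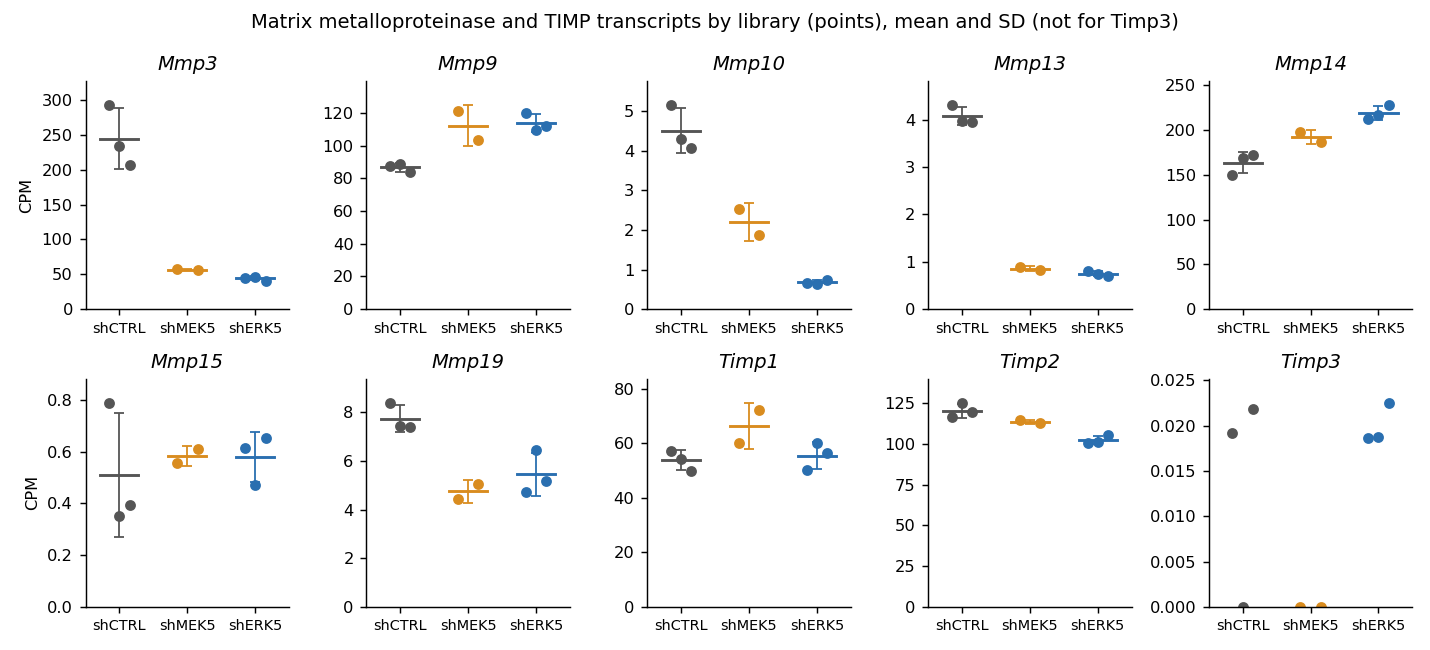
CPM of the 10 genes (vertical axes, each from 0) in shCTRL, shMEK5 and shERK5. Points are libraries, horizontal bars the group mean and error bars the SD, which are not drawn for Timp3; Mmp3, Mmp10 and Mmp13 lie lower in every knockdown library than in any shCTRL library, Mmp9 and Mmp14 lie higher, and Timp3 never exceeds 1 read.

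Mmp3 (Entrez Gene 17392; GRCm38 chromosome 9, 7445822 to 7455975) encodes stromelysin-1, which cuts proteoglycans, laminin and fibronectin and activates other proenzymes. It was read at 292, 234 and 206 CPM in shCTRL replicates 1, 2 and 3. In shMEK5 it was at 56.8 and 56.4 CPM, and in shERK5 at 45.1, 46.3 and 41.0 CPM. No knockdown library came near a shCTRL library, and shCTRL replicate 1 was the highest of the 8. By limma, the log2 fold change in shMEK5 was -2.07 (SE 0.13, adjusted p = 5.10e-06) and that in shERK5 -2.43 (SE 0.11, adjusted p = 5.54e-07). Ordered from the lowest fold change, Mmp3 ranked 4 of 11623 tested genes in shMEK5 and 6 in shERK5.

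Mmp10 (Entrez Gene 17384; chromosome 9, 7502342 to 7510242) encodes stromelysin-2, a close relative of stromelysin-1. It was far less abundant, with 5.15, 4.30 and 4.07 CPM in the shCTRL libraries. The shMEK5 libraries held 2.54 and 1.87 CPM and the shERK5 libraries 0.670, 0.639 and 0.742 CPM, the latter from 33 to 36 reads each. The groups did not overlap and formed 3 steps with shMEK5 in the middle. By limma, the log2 fold change in shMEK5 was -0.78 (SE 0.12, adjusted p = 0.000372) and that in shERK5 -1.71 (SE 0.11, adjusted p = 5.57e-07). On the recovered reads, where no pseudocount of 1 CPM damps a low gene, edgeR gave -1.02 and -2.73.

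Mmp13 (Entrez Gene 17386; chromosome 9, 7272514 to 7283333) encodes collagenase-3, which cleaves fibrillar collagens. It was read at 4.30, 3.98 and 3.96 CPM in shCTRL, at 0.894 and 0.820 CPM in shMEK5 and at 0.801, 0.751 and 0.697 CPM in shERK5. The knockdown libraries rest on 31 to 43 reads each and all lie below the filter of 1 CPM, whereas the shCTRL libraries hold 170 to 224 reads. Both knockdowns came to about the same level, and shERK5 stood at 18.4% of the shCTRL mean. By limma, the log2 fold change in shMEK5 was -1.45 (SE 0.09, adjusted p = 1.39e-06) and that in shERK5 -1.54 (SE 0.08, adjusted p = 2.07e-07). With no filter on low values the fold changes were the same, with limma adjusted p = 1.17e-05 and 3.59e-06, and on the recovered reads edgeR gave -2.23 and -2.44. By rank from the lowest fold change, Mmp13 stood at 26 in shMEK5 and 77 in shERK5, and Mmp10 at 298 and 53. Mmp13 was in that ranking only through shCTRL, and the pseudocount damps both genes. Their ranks are therefore not comparable with those of Mmp3.

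Mmp14 (Entrez Gene 17387; chromosome 14, 54431598 to 54442456) encodes MT1-MMP, a membrane-anchored collagenase that sits on the cell surface and activates pro-MMP2 with the help of TIMP2. It was read at 150, 168 and 172 CPM in shCTRL, at 198 and 186 CPM in shMEK5 and at 212, 217 and 227 CPM in shERK5. All knockdown libraries lay above all shCTRL libraries, and all shERK5 libraries above both shMEK5 libraries. Mmp14 rose by a log2 fold change of 0.23 (SE 0.07, limma adjusted p = 0.0129) in shMEK5 and 0.42 (SE 0.06, limma adjusted p = 0.000126) in shERK5. The call in shMEK5 was lost without shMEK5 replicate 1, at 0.19 (limma adjusted p = 0.105). Mmp2, the gelatinase that MT1-MMP activates, was named after its values were seen. It was read at 0.234 to 0.263 CPM in shCTRL, 0.386 and 0.189 CPM in shMEK5 and 0.465 to 0.472 CPM in shERK5, below the filter in each library.

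Mmp9 (Entrez Gene 17395; chromosome 2, 164940326 to 164955850) encodes gelatinase B, which degrades denatured collagen and type IV collagen of basement membranes. The shCTRL libraries held 87.5, 88.9 and 83.7 CPM, the shMEK5 libraries 121 and 103 CPM, and the shERK5 libraries 120, 109 and 112 CPM. The shMEK5 and shERK5 libraries covered the same range, and all were above shCTRL. Mmp9 rose by 0.36 on the log2 scale (SE 0.07, limma adjusted p = 0.00187) in shMEK5 and by 0.39 (SE 0.06, limma adjusted p = 0.000373) in shERK5. The gelatinase and the membrane enzyme thus rose in the same libraries in which the 2 stromelysins and collagenase-3 fell.

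Mmp19 (Entrez Gene 58223; chromosome 10, 128790910 to 128800827) encodes a secreted enzyme that cuts basement membrane proteins. Its values were 8.38, 7.44 and 7.38 CPM in shCTRL, 4.42 and 5.07 CPM in shMEK5 and 4.71, 6.44 and 5.20 CPM in shERK5. Neither knockdown overlapped shCTRL, although shERK5 replicate 2 came closest. By limma, the log2 fold change in shMEK5 was -0.60 (SE 0.12, adjusted p = 0.00184) and that in shERK5 -0.44 (SE 0.11, adjusted p = 0.00388). Mmp19 overlaps Tmem198b, on the opposite strand, which was read at 17.9 to 37.8 CPM. The sources used here do not say whether the authors' counting used the strand, so the level of Mmp19 is uncertain.

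Mmp15 (Entrez Gene 17388; chromosome 8, 95352296 to 95374293) encodes MT2-MMP, a further membrane-anchored enzyme. The libraries held 0.788, 0.351 and 0.394 CPM in shCTRL, 0.556 and 0.610 CPM in shMEK5 and 0.614, 0.470 and 0.652 CPM in shERK5, from 15 to 41 reads a library. The groups overlapped throughout, with the widest spread inside shCTRL. With no filter on low values, the log2 fold change was 0.08 (limma adjusted p = 0.677) in shMEK5 and 0.07 (limma adjusted p = 0.627) in shERK5.

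Timp1 (Entrez Gene 21857; chromosome X, 20870166 to 20874737) encodes a secreted inhibitor of most soluble MMPs that binds pro-MMP9 and is a poor inhibitor of MT1-MMP. Its level was 57.2, 54.4 and 49.9 CPM in shCTRL, 60.3 and 72.3 CPM in shMEK5 and 50.1, 60.1 and 56.5 CPM in shERK5. The shMEK5 libraries were above all shCTRL libraries, 1 of them by a small margin, and the shERK5 libraries overlapped shCTRL. By limma, the log2 fold change in shMEK5 was 0.29 (SE 0.10, adjusted p = 0.0297) and that in shERK5 0.04 (SE 0.09, adjusted p = 0.681; 95% interval -0.15 to 0.24). The rise in shMEK5 rested on few libraries. It was no longer called without shMEK5 replicate 2 (0.16, adjusted p = 0.269), shCTRL replicate 2 (adjusted p = 0.0605) or shCTRL replicate 3 (adjusted p = 0.0934), nor with no filter on low values (adjusted p = 0.0610), all with limma.

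Timp2 (Entrez Gene 21858; chromosome 11, 118301061 to 118355411) encodes the inhibitor that also docks pro-MMP2 to MT1-MMP. The shCTRL libraries held 117, 125 and 120 CPM, the shMEK5 libraries 115 and 113 CPM, and the shERK5 libraries 101, 101 and 105 CPM. The 3 groups did not overlap, but the gaps were small beside those of the stromelysins. Timp2 fell by 0.23 on the log2 scale (SE 0.05, limma adjusted p = 0.00114) in shERK5. In shMEK5 it was at -0.08 on that scale (SE 0.05, limma adjusted p = 0.193; 95% interval -0.20 to 0.03). A short gene, Cep295nl, lies inside Timp2 on the same strand and was read at 0.633 to 1.69 CPM.

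Timp3 (Entrez Gene 21859; chromosome 10, 86300412 to 86349505) encodes the inhibitor that stays bound to the matrix. It had 1, 0 and 1 reads in shCTRL, 0 and 0 in shMEK5 and 1, 1 and 1 in shERK5. With a count of 0, as many as 3 reads (0.0559 to 0.0725 CPM at these depths) remain possible, and no library exceeded that, so no difference in Timp3 was detectable at this depth. Such limits cover counting error only. Timp1 and Timp3 lie inside the synapsin genes Syn1 and Syn3 on the opposite strand, which were read at 0 to 0.0242 and 0.0966 to 0.787 CPM.

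**Figure D2:**
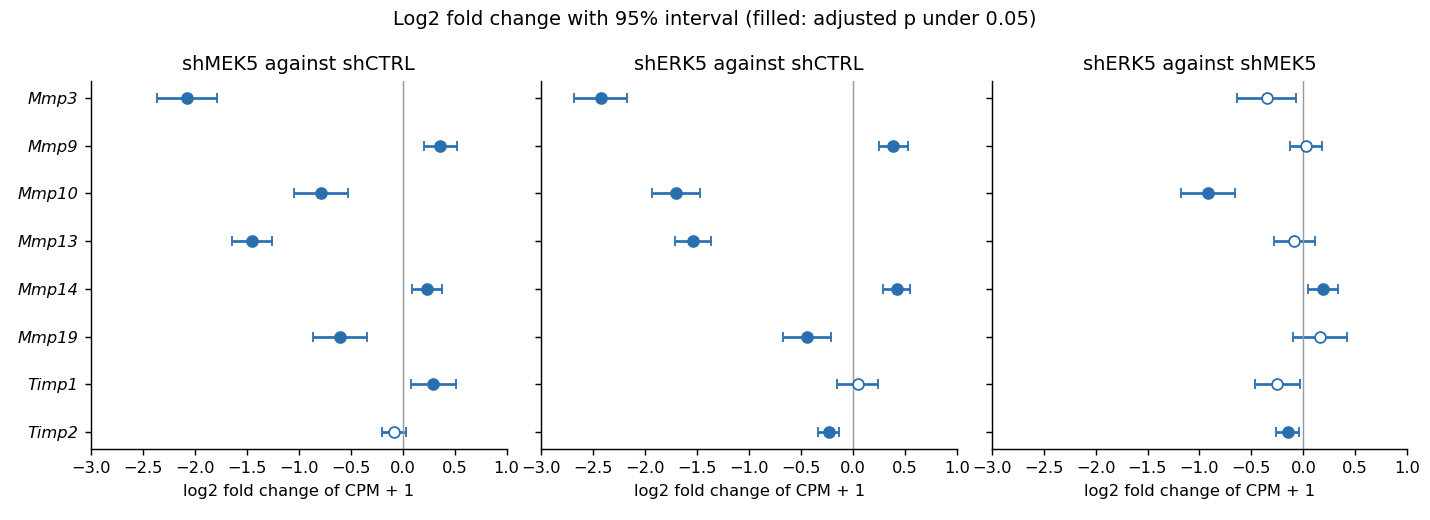
Log2 fold change of CPM + 1 (horizontal axes) for the 8 tested genes in the 3 comparisons, with 95% intervals; filled points passed the limma test at an adjusted p under 0.05. Mmp3, Mmp10 and Mmp13 lie far to the left in both knockdowns against shCTRL, and between the knockdowns Mmp10 lies farthest from 0.

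Set against each other, the knockdowns differed most in Mmp10. It was lower in shERK5 than in shMEK5 by a log2 fold change of -0.92 (SE 0.12, limma adjusted p = 0.000179). Of the 8 genes tested, 3 were called in shERK5 against shMEK5, where 39.4% of all tested genes were called. They were 1 higher and 2 lower, beside 22.0% and 17.4% of all tested genes, and in 6 of 8 the libraries did not overlap, beside 61.0%. Next to Mmp10, the called genes were Mmp14, at 0.19 (SE 0.07, limma adjusted p = 0.0435), and Timp2, at -0.15 (SE 0.05, limma adjusted p = 0.0376). The call of Mmp14 was lost under 12 of 17 alternatives, among them edgeR (adjusted p = 0.0766), and that of Timp2 under 6 of 17, each of which left out a library. Mmp3 was at -0.35 (SE 0.13, limma adjusted p = 0.0524; 95% interval -0.64 to -0.07) and passed the test under 8 of 17 alternatives, among them edgeR (adjusted p = 0.0465). Timp1 was at -0.25 (SE 0.10, limma adjusted p = 0.0656; 95% interval -0.47 to -0.03) and passed under 6 of 17. For the remaining genes the intervals of shERK5 minus shMEK5 included 0. They ran from -0.13 to 0.18 for Mmp9, from -0.28 to 0.11 for Mmp13 and from -0.10 to 0.42 for Mmp19.

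The 3 proteases that fell most are neighbours. Mmp13, Mmp3 and Mmp10 belong to a cluster of 10 protein-coding MMP genes on chromosome 9, between 7272514 and 7699585 (GRCm38), a stretch of 427.072 kb. In this cluster 5 genes had at least 10 reads over the shCTRL libraries, namely Mmp13, Mmp1b, Mmp3, Mmp1a and Mmp10. All 5 fell in both knockdowns when no filter was applied, where 16.7% of 17283 genes were called lower in shMEK5 and 21.5% in shERK5. The minimum was set on shCTRL, which favours genes that fall, and the genes behind these shares did not have to meet it. The lowest of the 5, Mmp1a, had 19 reads over shMEK5 and 38 over shERK5. Mmp1b went from 1.08 ± 0.123 CPM (SD, n = 3) in shCTRL to 0.325 ± 0.0159 CPM (SD, n = 2) in shMEK5 and 0.344 ± 0.0746 CPM (SD, n = 3) in shERK5. In that unfiltered fit its log2 fold change was -0.65 (limma adjusted p = 0.000282) in shMEK5 and -0.63 (limma adjusted p = 9.84e-05) in shERK5. Like Mmp13, Mmp1b met the filter of the main test only through shCTRL. Its sister gene Mmp1a was read at 0.442 to 0.491 CPM in shCTRL, 0.121 and 0.295 CPM in shMEK5 and 0.202 to 0.319 CPM in shERK5, with log2 fold changes of -0.28 (limma adjusted p = 0.0115) in shMEK5 and -0.23 (limma adjusted p = 0.0119) in shERK5. Mmp1a and Mmp1b are close copies whose shared reads the counting could have split, so each is uncertain alone. Among the other cluster genes, Mmp8, Mmp20 and Mmp7 had 0 reads in every library, Mmp12 had 5 reads in all of shCTRL, and Mmp27 had 3.

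The genes that flank the cluster were mixed. All 8 protein-coding genes from Dync2h1 to Cep126 that are not MMPs were tested, and 2 were higher and 0 lower in shMEK5, and 2 higher and 2 lower in shERK5, beside 23.1% higher and 25.6% lower of all tested genes in shMEK5 and 32.0% and 31.3% in shERK5. The list of neighbouring genes lacked Cfap300 and held Pgr, which missed the filter. Dync2h1, a dynein gene on the Mmp13 side, was at -0.23 (SE 0.14, limma adjusted p = 0.212) in shMEK5 and -0.25 (SE 0.13, limma adjusted p = 0.110) in shERK5. Birc2 and Birc3, which encode inhibitors of apoptosis, lie beyond the Mmp7 end. Birc2 rose by 0.42 (SE 0.06, limma adjusted p = 0.00015) in shMEK5 and 0.23 (SE 0.05, limma adjusted p = 0.00212) in shERK5. Birc3 rose by 1.09 (SE 0.12, limma adjusted p = 6.12e-05) in shMEK5 and was at 0.17 (SE 0.11, limma adjusted p = 0.206) in shERK5. The gene beside Mmp13, Dcun1d5, was at 0.09 and -0.01 on the log2 scale, and Tmem123, the nearest one beyond Mmp7, at -0.04 in shMEK5 and at 0.24 (SE 0.06, limma adjusted p = 0.00561) in shERK5. Farther out, Cep126 fell by 0.86 on the log2 scale (SE 0.16, limma adjusted p = 0.00112) in shERK5 and was at -0.13 (SE 0.17, limma adjusted p = 0.573) in shMEK5, and Cfap300 beside it, named after its values were seen, fell by 0.59 there (SE 0.08, limma adjusted p = 0.000139).

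**Figure D3:**
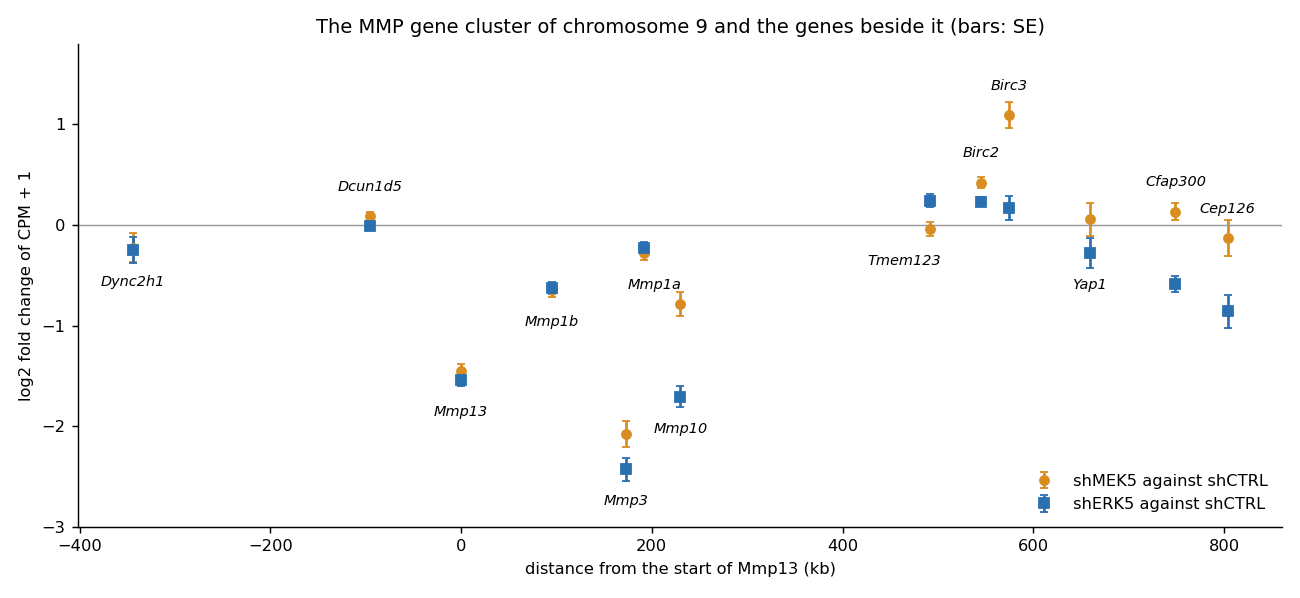
Log2 fold change of CPM + 1 with no filter on low values (vertical axis, bars are SE) against the distance from the start of Mmp13 in kb (horizontal axis), for genes with at least 10 reads over shCTRL; circles are shMEK5 and squares shERK5, each against shCTRL. The 5 MMP genes all lie below 0 in both knockdowns, as do Dync2h1 and Cep126 at the ends; Dcun1d5 lies near 0, Birc2 and Birc3 lie above 0, and the others differ in sign between the knockdowns.

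The promoters of Mmp3, Mmp10 and Mmp13 are shown beside those of Mmp14 and Timp1. The first 3 hold letters that the other 5 members in the promoter table lack. That table has no entry for Mmp19, which also fell, or for Mmp9, which rose. A link between the letters and the falls was not tested. The sequences are the 120 bases before the annotated start, 5′ to 3′ on the gene's strand, from the RefSeq promoter table of GRCm38.p6. Capitals mark AP-1 letters (TGANTCA, the element bound by Fos and Jun dimers) and TATA letters (TATAAA).
Mmp3: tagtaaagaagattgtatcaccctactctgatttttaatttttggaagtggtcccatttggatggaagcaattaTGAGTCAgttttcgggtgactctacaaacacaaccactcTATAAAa
Mmp10: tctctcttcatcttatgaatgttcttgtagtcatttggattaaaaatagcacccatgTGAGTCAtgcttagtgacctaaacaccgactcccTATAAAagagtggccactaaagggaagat
Mmp13: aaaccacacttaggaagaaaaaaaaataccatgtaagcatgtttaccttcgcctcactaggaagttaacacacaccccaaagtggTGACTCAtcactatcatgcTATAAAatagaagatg
Mmp14: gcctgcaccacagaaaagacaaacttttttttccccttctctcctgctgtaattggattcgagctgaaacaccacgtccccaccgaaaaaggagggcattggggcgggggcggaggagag
Timp1: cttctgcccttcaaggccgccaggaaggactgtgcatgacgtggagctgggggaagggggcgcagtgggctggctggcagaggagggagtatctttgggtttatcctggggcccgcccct
The windows are chr9:7445702-7445821, chr9:7502222-7502341, chr9:7272394-7272513, chr14:54431478-54431597 and chrX:20870046-20870165, all on the plus strand. In the 250 bases before the start, searched on both strands, AP-1 letters began 46 bases before the start in Mmp3, 63 in Mmp10 and 35 in Mmp13. They were found in 3 of the 8 members that matched the table (Mmp9 and Mmp19 did not match), and in 6.75% of all 32851 promoters. TATAAA stood 7, 29 and 16 bases before the start of the same 3 genes and in 12.4% of all promoters. Of the 10 genes of the chromosome 9 cluster, 8 held AP-1 letters in a promoter of the table. Of 12 other MMP and TIMP genes in the table, 0 did. The table lacks Mmp9, Mmp19, Mmp2 and further MMP genes, so these counts do not cover the whole family. The 8 cluster genes with AP-1 letters included Mmp7 and Mmp20, which had no read. A match is a description of the sequence, not evidence of binding.

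Per kilobase of exon, which allows genes to be compared, Mmp3 was the most abundant of the 10 in shCTRL, at 136 CPM per kb. Timp1 followed at 60.6, Mmp14 at 39.0, Timp2 at 32.5 and Mmp9 at 27.3 CPM per kb, with no overlap between neighbours. The other proteases were far lower, with Mmp10 at 2.62, Mmp19 at 2.24, Mmp13 at 1.53 and Mmp15 at 0.0995 CPM per kb, and the libraries of Mmp10 and Mmp19 overlapped. In shMEK5 the order became Timp1 (74.7), Mmp14 (45.9), Mmp9 (35.3), Mmp3 (31.4) and Timp2 (30.7 CPM per kb). In shERK5 it was Timp1 (62.6), Mmp14 (52.3), Mmp9 (35.9), Timp2 (27.6) and Mmp3 (24.5 CPM per kb). Neighbours in these orders did not overlap, and Mmp3 went from the first place to the fourth and the fifth.

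The balance of protease to inhibitor transcripts was lower in both knockdowns. The summed level of the 7 proteases divided by that of the 3 inhibitors, both in CPM per kb, was 2.43, 2.15 and 2.12 in the shCTRL libraries, 1.22 and 0.995 in shMEK5 and 1.38, 1.21 and 1.25 in shERK5. Every knockdown library lay below every shCTRL library, at 1.11 ± 0.156 (SD, n = 2) and 1.28 ± 0.0931 (SD, n = 3) against 2.24 ± 0.169 (SD, n = 3). The numerator changed more than the denominator: summed proteases were 208 CPM per kb in shCTRL, 116 in shMEK5 and 115 in shERK5, and summed inhibitors 93.1, 105 and 90.2. Without Mmp3 the drop was gone, and the ratio was 0.783 ± 0.0463 (SD, n = 3) in shCTRL, 0.806 ± 0.128 (SD, n = 2) in shMEK5 and 1.01 ± 0.0748 (SD, n = 3) in shERK5. All shERK5 libraries then lay above shCTRL, at 0.935 to 1.08 against 0.737 to 0.830, and the shMEK5 libraries overlapped shCTRL. These ratios are descriptions with no test, and a transcript ratio is not a ratio of active enzyme to inhibitor.

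**Figure D4:**
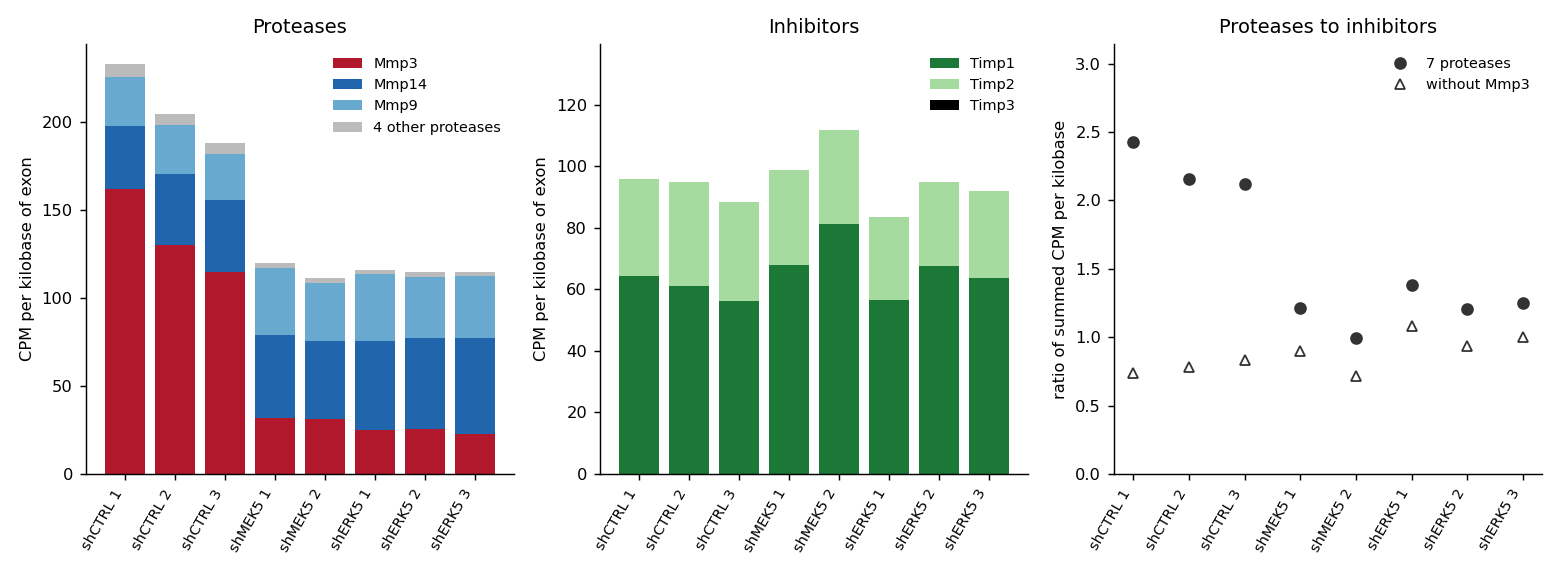
Stacked CPM per kilobase of exon of the proteases (left) and the inhibitors (centre) in each library, and the ratio of the 2 sums (right) with all 7 proteases (circles) and without Mmp3 (triangles). The ratio drops from 2.12 or more in shCTRL to 1.38 or less in the knockdowns only where Mmp3 is included.

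The composition of the protease pool differed as well. Mmp3 made up 64.7% ± 4.47 (SD, n = 3) of the summed protease level in shCTRL, 27.2% ± 1.31 (SD, n = 2) in shMEK5 and 21.3% ± 1.35 (SD, n = 3) in shERK5. Mmp14 went from 19.0% to 39.7% and 45.5%, and Mmp9 from 13.2% to 30.5% and 31.2%. Timp1 held 65.0% of the summed inhibitor level in shCTRL, 70.8% in shMEK5 and 69.3% in shERK5. For the pairs known to bind, the ratio of Mmp9 to Timp1 was 0.452 ± 0.0211 (SD, n = 3), 0.480 ± 0.114 (SD, n = 2) and 0.578 ± 0.0823 (SD, n = 3), and the shMEK5 libraries overlapped shCTRL. The ratio of Mmp14 to Timp2 was higher in the knockdowns without overlap, going from 1.20 ± 0.0645 (SD, n = 3) to 1.50 ± 0.0481 (SD, n = 2) and 1.89 ± 0.0228 (SD, n = 3). That of Mmp3 to Timp1 was lower in the knockdowns, going from 2.23 to 0.425 and 0.394.

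Mmp3, which activates other proenzymes and fell in both knockdowns, was not on the list of pro-MMP activators. Among the listed activators, the tested ones that changed all rose. Of 14 such genes 7 were tested, 4 were higher and 0 lower in shMEK5, and 6 were higher and 0 lower in shERK5, with median log2 fold changes of 0.17 and 0.33. Of all tested genes, 23.1% were called higher and 25.6% lower in shMEK5, and 32.0% and 31.3% in shERK5, and the counts of each gene group that follows stand beside these shares. From here on, a pair of values gives the log2 fold change in shMEK5 and then in shERK5, each against shCTRL. Plau, which encodes urokinase, the protease that makes plasmin, was at 242 ± 7.90 CPM (SD, n = 3) in shCTRL and rose with shMEK5 to 390 ± 15.3 CPM (SD, n = 2) and with shERK5 to 515 ± 30.2 CPM (SD, n = 3). Its log2 fold changes were 0.68 (SE 0.06, limma adjusted p = 1.10e-05) and 1.08 (SE 0.05, limma adjusted p = 1.86e-07). Its receptor gene Plaur rose by 0.32 and 0.46, and St14, which encodes the membrane protease matriptase, by 0.71 and 0.97. Ctsb, for the lysosomal protease cathepsin B, rose by 0.31 in shERK5 (SE 0.06, limma adjusted p = 0.00103) and was at -0.10 in shMEK5 (SE 0.07, limma adjusted p = 0.209). Plg, the gene of plasminogen itself, had at most 2 reads in a library.

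Other inhibitors and clearance receptors were mixed, with 2 of 5 tested genes higher and 2 lower in each knockdown, beside 23.1% and 25.6% of all tested genes in shMEK5 and 32.0% and 31.3% in shERK5. Thbs1, for thrombospondin-1, rose by 1.22 (SE 0.06) and 1.11 (SE 0.06). Lrp1, an endocytic receptor that clears MMPs and their complexes, fell by 0.53 (SE 0.11) in shMEK5 and 0.63 (SE 0.09) in shERK5. Pcolce, a procollagen processing enhancer, fell by 0.70 (SE 0.08) in shMEK5 and was at -0.08 (SE 0.07, limma adjusted p = 0.325) in shERK5. Each value given here as a rise or a fall passed the limma test. Beyond the 10 genes and Mmp1b, only Mmp11 and Mmp28 of the MMP family reached the filter. Mmp11, stromelysin-3, was read at 21.9 ± 1.54 CPM (SD, n = 3), 20.3 ± 0.377 CPM (SD, n = 2) and 18.8 ± 1.68 CPM (SD, n = 3), and fell in shERK5 by 0.21 on the log2 scale (SE 0.08, limma adjusted p = 0.0356). Its fold change in shMEK5 was -0.10 (SE 0.09, limma adjusted p = 0.362).

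Inducers, partners and docking proteins of MMPs were mixed. Of 10 tested, 4 were higher and 2 lower in shMEK5, beside 23.1% and 25.6% of all tested genes. In shERK5, 2 were higher and 6 lower, beside 32.0% and 31.3%. Lcn2 encodes lipocalin-2, whose reported binding to MMP9 was not examined in these mouse cells. Lcn2 stood at 9.88 ± 0.851 CPM (SD, n = 3) in shCTRL, 5.29 ± 0.755 CPM (SD, n = 2) in shMEK5 and 18.6 ± 1.10 CPM (SD, n = 3) in shERK5. Between the knockdowns it differed by 1.65 on the log2 scale (SE 0.10, limma adjusted p = 1.55e-06), where Mmp9 itself was at 0.03. Cd151, a tetraspanin that associates with MT1-MMP, went from 233 ± 9.55 CPM (SD, n = 3) in shCTRL to 214 ± 12.2 CPM (SD, n = 2) in shMEK5 and 78.9 ± 1.95 CPM (SD, n = 3) in shERK5. On the log2 scale it changed by -1.55 (SE 0.05, limma adjusted p = 3.21e-08) in shERK5 and was at -0.12 (SE 0.06, limma adjusted p = 0.105) in shMEK5. Bsg, which encodes the MMP inducer basigin, rose by 0.20 and 0.53, and Tgfb1 fell by 0.46 and 0.79 on the log2 scale.

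Genes of transcription factors known to act on MMP promoters showed no common direction. All 20 were tested, with 5 higher and 5 lower in shMEK5 and 5 higher and 4 lower in shERK5, and medians of 0.05 and 0.09. Of all tested genes, 23.1% were higher and 25.6% lower in shMEK5, and 32.0% and 31.3% in shERK5. Ets1 rose in both, with 482 ± 31.3 CPM (SD, n = 3) for shCTRL, 904 ± 6.29 CPM (SD, n = 2) for shMEK5 and 702 ± 19.8 CPM (SD, n = 3) for shERK5. The AP-1 gene Fosl2 rose likewise, with 115 ± 11.8 CPM (SD, n = 3) for shCTRL, 183 ± 4.94 CPM (SD, n = 2) for shMEK5 and 214 ± 7.42 CPM (SD, n = 3) for shERK5. Nfkb1 rose by 0.29 and 0.31. Etv1, of the PEA3 group of ETS factors, fell by 0.40 and 0.44 on the log2 scale. Of the Jun and Fos genes, named after their values were seen, Jun rose in shMEK5 (0.48, SE 0.11, limma adjusted p = 0.0079) and was at 0.25 (SE 0.10, limma adjusted p = 0.0618) in shERK5. Fos rose in shERK5 (0.44, SE 0.13, limma adjusted p = 0.0138) and was at 0.25 (SE 0.15, limma adjusted p = 0.191) in shMEK5. Fosl1 was at 0.14 in both, short of the threshold.

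Of 14 tested genes for matrix proteins that MMPs cut, 8 were higher and 2 lower in shMEK5, with a median of 0.42, beside 23.1% and 25.6% of all tested genes and their median of -0.02. In shERK5, 5 were higher and 3 lower, with a median of 0.08, which is near the 32.0% higher and the median of 0.00 of all tested genes. Lama3 and Lamb3, which encode laminin chains of epithelial basement membranes, rose in both knockdowns. Lama3 rose by 1.18 and 1.14, and Lamb3 by 0.89 and 1.05. Tnc, for tenascin-C, parted between the knockdowns, at 12.4 ± 0.664 CPM (SD, n = 3) in shCTRL, 17.7 ± 2.26 CPM (SD, n = 2) in shMEK5 and 4.26 ± 0.379 CPM (SD, n = 3) in shERK5. The difference between the knockdowns was -1.83 (SE 0.10, limma adjusted p = 7.20e-07).

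The genes whose pattern over the 8 libraries was most like that of Mmp3 were sought among 10059 genes with a mean of at least 5 CPM, by the root mean square difference of centred log2(CPM + 1). They were Fcgrt (0.161), Mgat3 (0.219) and Sned1 (0.253), of which Fcgrt, the neonatal Fc receptor gene, was at 15.1 ± 0.737 CPM (SD, n = 3) for shCTRL, 2.34 ± 0.344 CPM (SD, n = 2) for shMEK5 and 1.54 ± 0.191 CPM (SD, n = 3) for shERK5. For Timp1 they were Sgcb (0.0470), Rrm1 (0.0476) and Mgme1 (0.0532). The smaller distances to Timp1 go with its smaller spread between groups.

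Since stromal and white blood cells also make MMPs, their markers were read in each group. The summed level of the 8 fibroblast markers was 31.6 to 47.4 CPM in shCTRL, 34.4 to 35.9 CPM in shMEK5 and 22.9 to 28.2 CPM in shERK5, nearly all of it Pdgfra, which was called lower in shERK5 (-0.48, SE 0.14, limma adjusted p = 0.0180). Dcn, Lum and Thy1 were at 0 reads in all 8 libraries. The summed level of the 8 leukocyte markers was 3.00 to 3.32 CPM in shCTRL, 2.08 to 2.25 CPM in shMEK5 and 2.98 to 3.85 CPM in shERK5, nearly all of it Cd68, with Adgre1 at 0 reads throughout. Cd68 was called lower in shMEK5 (-0.43, limma adjusted p = 0.00617) and was at 0.09 in shERK5. The 5 endothelial markers summed to 0.387 CPM or less in every library. Mammary epithelial markers summed to 1712 to 1892 CPM in shCTRL, 1294 to 1356 CPM in shMEK5 and 1666 to 1705 CPM in shERK5. The sums rest on Krt8 and Krt18, which fell in both knockdowns, while other markers rose. Of the 8, 4 were higher and 2 lower in shMEK5, beside 23.1% and 25.6% of all tested genes. In shERK5, 5 were higher and 2 lower, beside 32.0% and 31.3%. The medians were 0.14 and 0.94, beside -0.02 and 0.00 over all tested genes. Cldn4, a tight junction gene, rose by 0.17 (SE 0.06, limma adjusted p = 0.0268) and 2.03 (SE 0.05, limma adjusted p = 5.10e-09), and Cdh1, for E-cadherin, by 0.56 (SE 0.07, limma adjusted p = 7.25e-05) and 1.56 (SE 0.06, limma adjusted p = 5.28e-08). Krt19 rose by 0.39 (SE 0.06, limma adjusted p = 0.000379) and 1.02 (SE 0.05, limma adjusted p = 2.11e-07). Epcam rose by 1.06 in shERK5 (SE 0.09, limma adjusted p = 3.45e-06) and was at 0.10 in shMEK5 (SE 0.10, limma adjusted p = 0.401). The part of all these markers in the MMP values was not tested.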

How the data were processed

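Total RNA of 4T1 cells was depleted of ribosomal RNA and sequenced from strand-specific libraries, per the labels' protocols. Per the submitters' processing notes, STAR and the mouse build mm10 were used; the sources used here do not give versions, annotation, the counting program or whether it used strand. The authors deposited CPM per Entrez Gene number for 24454 genes, and 24374 were given symbols through a RefSeq table of GRCm38.p6. Divided by the value of 1 read, 100% of values came within 0.01 of a whole number, so reads were recovered; the totals of 41397315 to 53714288 reads set the precision.

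Libraries were grouped by the hairpin in their titles. The main test was limma 3.58.1 (R 4.3.3; trend, robust empirical Bayes) on log2(CPM + 1), with a mean per group over all 8 libraries and no covariate. Genes at 1 CPM or more in at least 2 libraries were tested, 11623 in all, and p-values were adjusted by the Benjamini-Hochberg method. Fold changes on this scale understate low genes. This fit was first run on simulated data, in which far fewer genes changed than were called here and all genes had the same relative spread. That run therefore does not measure the error of the calls made here. Alternatives were RLE and TMM scaling, library sizes without the 20 most abundant genes, a pseudocount of 0.25, no filter, a mean of at least 5 CPM, edgeR 4.0.16 and DESeq2 1.42.0 on recovered reads, the replicate number as a block, and leaving out each library. Exon lengths came from the merged exons of GENCODE M21.

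No library was a duplicate of another in its group: the chi-square of replicate pairs divided by its degrees of freedom was 8.23 to 42.6. Pairs across groups were not compared in this way. The genes and gene lists were chosen with earlier results of these data known. Named genes were the 10 members, Map2k5 and Mapk7, up to 4 genes of each list with the smallest adjusted p against shCTRL, and the 3 genes most similar to the protease and to the inhibitor with the largest fold change. Other genes named, such as Mmp1a, Mmp2, Dcun1d5, Cfap300, Jun, Fos and Fosl1, were chosen after their values were seen. Some genes that the rule names are not reported here.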

Additional observations from a re-analysis of the deposited data

How the results depend on the processing

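Against shCTRL, every call of Mmp3, Mmp9, Mmp19 and, in shERK5, of Mmp14 and Timp2 held under all 17 alternatives run, and those of Mmp10 and Mmp13 under all 16 that tested them, since both miss a mean of 5 CPM; the exceptions in shMEK5 were Mmp14, lost under 1, and Timp1, lost under 4. No called value changed sign. On the log2 scale, Mmp10 in shERK5 ranged from -2.73 (DESeq2) to -1.62 (without shCTRL replicate 1), and Mmp13 in shMEK5 from -2.24 to -1.42 under the same alternatives; with a pseudocount of 0.25 they were at -2.34 and -1.97. Leaving out each library, members called in shERK5 against shMEK5 ranged from 1 to 4, with 1 left without shMEK5 replicate 2 or shERK5 replicate 3, and all genes called from 2864 (without shMEK5 replicate 1) to 4825. With a single library left in shMEK5, that library is assumed to vary like the other groups. With the replicate number as a block, 7, 7 and 2 members and 5763, 7462 and 4435 genes of all were called in shMEK5, shERK5 and between them. Mmp14 lost its call between the knockdowns (limma adjusted p = 0.0815). The labels tie no libraries by number, so the main test did not pair them. Deviations of same-numbered libraries from their group means correlated from -0.19 to 0.17 between shCTRL and the knockdowns. In the 2 pairs of shMEK5 and shERK5 they correlated at 0.46 and 0.52. The deviations of the 2 shMEK5 libraries mirror each other, so these 2 values are not independent. Whether same-numbered knockdown libraries share a batch was not tested. Scaling by RLE or TMM moved no library by more than 0.02 on the log2 scale. The ratio of proteases to inhibitors was 2.93, 2.06 and 2.43 in shCTRL, shMEK5 and shERK5 on reads without length correction. Per kilobase without Mmp3 and Timp1, the most abundant of each kind, it was 2.24, 2.75 and 3.28. In that form the direction was reversed, and every knockdown library lay above every shCTRL library. Depth limits Timp3, Mmp15, Mmp1a and the knockdown levels of Mmp10 and Mmp13, which rest on few reads.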
